A study of Mus musculus with 7 samples.

Results

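The brush border is the carpet of microvilli on the luminal face of the absorptive enterocyte, and 33 of its genes were followed here in mouse duodenum. They were taken by symbol from a table of 47069 genes, each symbol matching a gene in the table, and all 33 were abundant enough to be tested. They comprised 19 genes for enzymes that face the gut lumen (called hydrolases below), 12 genes for the structure of the microvillus, and the 2 subunits of cubam, the receptor for vitamin B12 bound to intrinsic factor. The rule that picks them uses gene names and no measured value, although the list was drawn up with earlier results of these data known.

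The microvillus is built on a bundle of parallel actin filaments tied to the plasma membrane, and its tips are joined to those of its neighbours by protocadherins. Enzymes anchored in its membrane carry out the last steps of digestion, splitting disaccharides and small peptides into units that transporters can take up. Others remove phosphate from nucleotides and bacterial lipopolysaccharide or break down sphingolipids. Enterocytes gain these enzymes as they leave the crypt and climb the villus, and their levels differ along the length of the intestine.

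The series asked how T0901317 alters the intestinal transcriptome. T0901317, T09 in the labels, is a synthetic compound that activates LXR, the liver X receptors, which sense oxysterols and switch on genes of cholesterol export and fatty acid synthesis. RNA came from the duodenum of 7 male C57BL/6J mice aged 8 to 12 weeks, with 1 poly(A) RNA-seq library for each mouse. The vehicle group (n = 4) was given 0.5% carboxymethylcellulose and the T09 group (n = 3) was given T09 at 50 mg/kg/day. The carrier used for T09, the length of dosing and the stretch of duodenum taken were not given in the sources used here, and nothing states that matching library numbers mark a shared cage or day.

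The start sites of 6 of these genes are shown because their genes carry the main contrasts. Akp3, Alpi and Enpp7 were among those that differed most between vehicle mice. Sis and Lct are the classic sugar enzymes of the enterocyte, and Vil1 was among the steadiest of the group. Each line gives the 150 bases just before the RefSeq start on build GRCm38.p6, 5′ to 3′ on the strand of the gene. Capitals mark matches, on either strand, to a core recognised by CDX factors, TTTATNG, to one of the zinc finger factors of the GATA family, AGATAA, and to one of HNF4 factors, CAAAGTCCA.
Akp3, chr1:87124804-87124953, plus strand: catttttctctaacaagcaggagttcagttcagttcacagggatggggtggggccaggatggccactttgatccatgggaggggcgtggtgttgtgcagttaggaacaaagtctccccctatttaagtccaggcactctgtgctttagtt
Alpi, chr1:87101607-87101756, minus strand: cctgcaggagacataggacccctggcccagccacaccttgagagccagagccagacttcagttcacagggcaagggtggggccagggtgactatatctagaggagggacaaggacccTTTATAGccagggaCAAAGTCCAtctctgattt
Enpp7, chr11:118988031-118988180, plus strand: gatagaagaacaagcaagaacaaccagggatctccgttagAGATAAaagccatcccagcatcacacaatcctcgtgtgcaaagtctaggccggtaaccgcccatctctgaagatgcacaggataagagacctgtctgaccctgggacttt
Sis, chr3:72967864-72968013, minus strand: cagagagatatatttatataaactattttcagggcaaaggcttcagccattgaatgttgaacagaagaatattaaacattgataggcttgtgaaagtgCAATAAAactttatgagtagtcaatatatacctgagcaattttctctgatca
Lct, chr1:128328319-128328468, minus strand: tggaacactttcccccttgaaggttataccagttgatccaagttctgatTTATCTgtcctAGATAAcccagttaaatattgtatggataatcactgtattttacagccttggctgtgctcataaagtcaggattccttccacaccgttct
Vil1, chr1:74409234-74409383, plus strand: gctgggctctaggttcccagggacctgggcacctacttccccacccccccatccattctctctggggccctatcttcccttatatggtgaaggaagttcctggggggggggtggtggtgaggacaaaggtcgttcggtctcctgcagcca
In these windows Alpi held a CDX and an HNF4 match, Sis a CDX match, Lct a pair of GATA matches and Enpp7 a GATA match, while Akp3 and Vil1 held none of these strings.

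RefSeq start sites were found for 30 of the 33 genes, 39 sites in all, and the 250 bases upstream of each were searched on both strands. TTTATNG occurred at 12.8% of the brush border starts and at 9.81% of all 32851 starts, and AGATAA at 12.8% against 9.99%. GTTAAT, a core recognised by HNF1 factors, occurred at 7.69% against 6.43%. CAAAGTCCA occurred at 2 of the 39 starts (5.13%), those of Alpi and Treh, against 0.384% of all starts. The LXR response element was searched only as an exact direct repeat of AGGTCA spaced by 4 bases. That string occurred at none of the 39 starts and at 5 of all 32851 starts (0.0152%). It is too rare for its absence from 39 starts to be informative. A match of letters is a description of the sequence and does not show that a factor binds there.

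The libraries held 15395535 to 20494485 counts assigned to genes. Levels are given as CPM, the counts of a gene in every 1000000 counts of the library, after scaling each library by the trimmed mean of M values (TMM), which assumes that most genes do not differ, and group differences were tested with edgeR's quasi-likelihood test at a Benjamini-Hochberg adjusted p under 0.05 over all 14250 genes tested. Of these, 614 genes (4.31%) passed, 205 higher and 409 lower in T09. Smooth muscle genes were lower in every T09 library: 12 of 12 listed genes passed by edgeR, and their summed level was 1608 to 2577 CPM in vehicle and 441 to 753 CPM in T09. Of 9 enteric neuron and glia genes tested, 5 were called lower, and of 7 fibroblast genes tested, 1 was. Adipocyte genes summed to 168 to 440 CPM in vehicle, with vehicle 4 the highest, and to 115 to 144 CPM in T09, without overlap. Cidec alone measured 160, 152, 201 and 202 CPM in vehicle 1 to 4 and 143, 119 and 109 CPM in T09 1 to 3. It made up most of the sum in every library but vehicle 4, so the sum mainly follows that gene. Of 6 adipocyte genes tested, edgeR called 0, with 6 lower at an unadjusted p under 0.05, against 17.9% of all genes in either direction. Single libraries stood apart in other lists. Pancreatic acinar genes summed to 676 CPM in vehicle 1 against 8.40 to 37.5 CPM elsewhere, and B and plasma cell, macrophage and endothelial genes were highest in T09 1, at 744, 253 and 68.9 CPM. Summed Paneth cell genes ranged from 600.0 to 3063 CPM in vehicle and from 193 to 3384 CPM in T09, and the summed goblet, crypt stem and T cell genes overlapped between the groups. No listed cell type gene was at 0 in every library.

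Under T09 the 33 brush border genes sat slightly lower as a group, with no gene passing the test. The log2 fold change of T09 over vehicle was below 0 for 28 genes and above 0 for 5 (Sis, Mgam, Enpep, Ggt1 and Cubn), with a median of -0.20. Over all genes tested 47.1% were below 0 and the median was 0.02, and over the 3543 genes that averaged at least 50 CPM 44.7% were below 0 and the median was 0.03. By edgeR 0 of the 33 passed, against the background of 4.31% of all genes. The smallest adjusted p by edgeR was 0.0734, for Ezr. At an unadjusted p under 0.05 there were 13 genes, 12 lower and 1 higher (Cubn), against 17.9% of all genes. DESeq2 called 7 of the 33 lower, against 5.06% of all genes it tested, and limma-voom called 0. The 3 T09 libraries all lay below the 4 vehicle libraries for 9 of the 33 genes, against 9.69% of all genes and 8.27% of genes at 50 CPM or more. They lay above for 0 of the 33, against 7.07% of all genes.

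**Figure D1:**
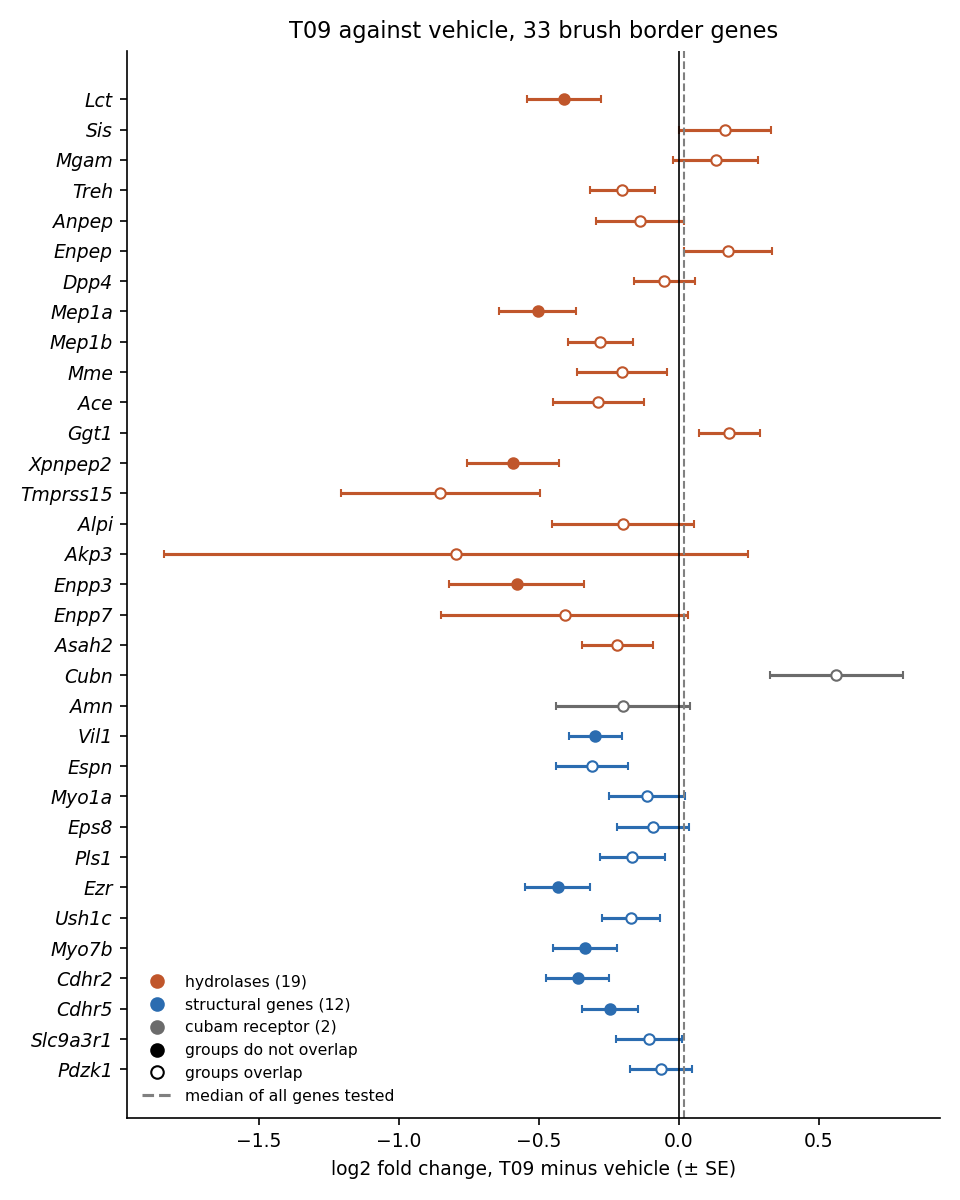
Log2 fold change of T09 over vehicle with its SE (edgeR, x axis) for each of the 33 genes (y axis), with 4 vehicle and 3 T09 libraries. Of the 33 points, 28 lie left of 0, the 12 structural genes run from -0.43 to -0.06, and the hydrolases run more widely, from -0.85 to 0.18.

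Among the 175 genes at 50 CPM or more that edgeR called, the smallest absolute log2 fold change was 0.37. Of the 33 brush border genes, 9 lay beyond that value, and none of the 9 passed. In bulk tissue, fewer enterocytes and less RNA per enterocyte cannot be told apart. The summed level of 10 general epithelial markers was also lower in T09, at 0.896% ± 0.0205 of the scaled library (SD, n = 3) against 1.07% ± 0.0534 in vehicle (SD, n = 4), with no overlap between the groups. All 10 markers were below 0, with a median of -0.21. EdgeR called 0 of them, with 5 at an unadjusted p under 0.05, against 17.9% of all genes. The lists of other epithelial cells were mostly below 0 too, so a low median was not particular to the brush border genes. Goblet genes were below 0 in 8 of 8 (median -0.27), Paneth genes in 8 of 8 (-0.46) and crypt stem genes in 7 of 8 (-0.19). EdgeR called 0 in each of these lists. Smooth muscle, enteric neuron and adipocyte genes were lower in the same libraries, and their part in the brush border values was not tested.

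Of the 4 disaccharidases, lactase had every T09 library below vehicle, and the enzymes of starch and sucrose digestion overlapped between the groups. Lct, which splits milk sugar, measured 2152, 2258, 1966 and 2667 CPM in vehicle 1 to 4 and 1556, 1897 and 1655 CPM in T09 1 to 3. Each T09 library was below each vehicle library, and the log2 fold change was -0.41 (SE 0.13, adjusted p = 0.137 by edgeR), while DESeq2 gave an adjusted p of 0.0370. Sis, sucrase-isomaltase, measured 3765, 3816, 2999 and 3313 CPM in vehicle and 2948, 4094 and 4655 CPM in T09. T09 1 was the lowest of the 7 libraries and T09 3 the highest, so the groups overlapped fully, with a log2 fold change of 0.17 (SE 0.16, adjusted p = 0.656 by edgeR). Mgam, maltase-glucoamylase, had the same order within T09, at 2078, 2876 and 3182 CPM, around vehicle values of 2238 to 2679 CPM (log2 fold change 0.13, SE 0.15). Treh, trehalase, ranged from 770.0 to 1007 CPM in vehicle and from 725 to 824 CPM in T09, an overlap.

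Of the 10 peptidases, 8 were below 0 and 2 above, with a median log2 fold change of -0.24. The 2 lowest in abundance showed the clearest separation. Mep1a, the alpha subunit of the metalloprotease meprin, measured 113, 109.6, 88.7 and 126 CPM in vehicle and 83.4, 82.8 and 65.5 CPM in T09. Xpnpep2, a membrane aminopeptidase that cleaves before proline, measured 52.4, 62.0, 56.8 and 80.9 CPM in vehicle and 34.9, 47.0 and 43.6 CPM in T09. In both genes every T09 library was below every vehicle library, although the margin for Mep1a was 88.7 against 83.4 CPM. The log2 fold changes were -0.50 for Mep1a (SE 0.14, adjusted p = 0.0802 by edgeR) and -0.59 for Xpnpep2 (SE 0.16, adjusted p = 0.0839 by edgeR). With no filter on low counts edgeR called both lower, with adjusted p of 0.0494 and 0.0402, against 2.27% of the genes tested that way. DESeq2 also called both lower, with adjusted p of 0.0209 for Mep1a and 0.0195 for Xpnpep2, against 5.06% of all genes it tested.

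The partner subunit Mep1b measured 1155, 1180.0, 944 and 1076 CPM in vehicle and 901, 966 and 823 CPM in T09, overlapping between vehicle 3 and T09 2 (log2 fold change -0.28, SE 0.12, adjusted p = 0.244 by edgeR). Tmprss15, enteropeptidase, which activates pancreatic trypsinogen, measured 279, 215, 136 and 90.6 CPM in vehicle and 132, 95.8 and 71.8 CPM in T09. The vehicle mice alone spanned 3.08-fold, vehicle 4 was below 2 of the 3 T09 libraries, and the log2 fold change of -0.85, the lowest of the 33, had an SE of 0.36 (adjusted p = 0.249 by edgeR). Ace, angiotensin-converting enzyme, which endothelial cells also make, was 1899 to 3056 CPM in vehicle, with vehicle 4 the highest, and 1817 to 1943 CPM in T09. Endothelial marker genes summed to at most 68.9 CPM, in T09 1, and their part in the Ace values was not tested.

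The most abundant peptidase by count was Anpep, aminopeptidase N, at 4383 to 6790.3 CPM in vehicle and 4716 to 5398 CPM in T09, the T09 range lying inside the vehicle range. Dpp4, which removes dipeptides from peptides with proline in the penultimate position, was 699.7 to 825 CPM in vehicle and 659.9 to 779.8 CPM in T09. Mme, neprilysin, was 1110.2 to 1738 CPM and 1211 to 1242 CPM in the same order. These ranges overlapped for all 3 genes. The 2 peptidases above 0 were Enpep, glutamyl aminopeptidase, at 932 to 1375 CPM in T09 against 869 to 1207 CPM in vehicle, and Ggt1, gamma-glutamyltransferase of glutathione breakdown. Ggt1 was among the steadiest genes of vehicle mice, at 1088, 1015, 1102 and 1084 CPM, and measured 1059, 1253 and 1333 CPM in T09, where T09 1 lay within the vehicle range (log2 fold change 0.18, SE 0.11, adjusted p = 0.442 by edgeR).

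The 5 phosphatases and lipid or nucleotide hydrolases were all below 0, with a median log2 fold change of -0.41. They held the genes that differed most between vehicle mice. Akp3, the duodenal alkaline phosphatase of the mouse, measured 4135, 1848, 256 and 179 CPM in vehicle and 2044, 319 and 411 CPM in T09. It was high in vehicle 1, vehicle 2 and T09 1 and low in the other 4 libraries, whatever the treatment. The vehicle mice spanned 23.1-fold, and the log2 fold change of -0.80 carried an SE of 1.04 (adjusted p = 0.751 by edgeR). Without vehicle 1 it was 0.29, and the lowest value on leaving out a library was -2.13.

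Alpi, the intestinal alkaline phosphatase found along the small intestine, measured 5289.8, 4169, 2517 and 2674 CPM in vehicle and 3689, 2786 and 3096 CPM in T09. The same 3 libraries were highest, over a narrower span of 2.10-fold, and the log2 fold change was -0.20 (SE 0.25, adjusted p = 0.743 by edgeR), or 0.03 without vehicle 1. Akp3 made up 43.9%, 30.7%, 9.24% and 6.28% of the counts of the pair in vehicle 1 to 4, and 35.7%, 10.3% and 11.7% in T09 1 to 3. Akp3 and Alpi are neighbours of similar sequence on chromosome 1. Of the 2233 stretches of 50 bases in Akp3 transcripts, 35 (1.57%) also occur unchanged in Alpi. Stretches that differ by a few bases were not counted, and how reads were divided between the 2 genes was not tested.

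Enpp7, the alkaline sphingomyelinase, was low in vehicle 1 and T09 1, where Akp3 was high. It measured 97.7, 215, 409 and 345 CPM in vehicle and 142, 306 and 155 CPM in T09. T09 3 was also low, and all T09 values lay inside the vehicle range (log2 fold change -0.41, SE 0.44, adjusted p = 0.695 by edgeR). Markers of other cell types also singled out vehicle 1, T09 1 and T09 3: pancreatic acinar genes peaked in vehicle 1, B and plasma cell and macrophage genes peaked in T09 1, and Paneth cell genes were lowest in T09 3, vehicle 1 and T09 1. Their part in the values of Akp3, Alpi and Enpp7 was not tested.

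Enpp3, a pyrophosphatase of extracellular nucleotides, measured 1338, 1018, 946 and 928 CPM in vehicle and 878, 819.8 and 426 CPM in T09. The groups did not overlap, although T09 3 stood well below the other T09 libraries, and the log2 fold change was -0.58 (SE 0.24, adjusted p = 0.248 by edgeR). Asah2, neutral ceramidase, ranged from 717 to 881 CPM in vehicle and from 575 to 748 CPM in T09, with a small overlap.

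**Figure D2:**
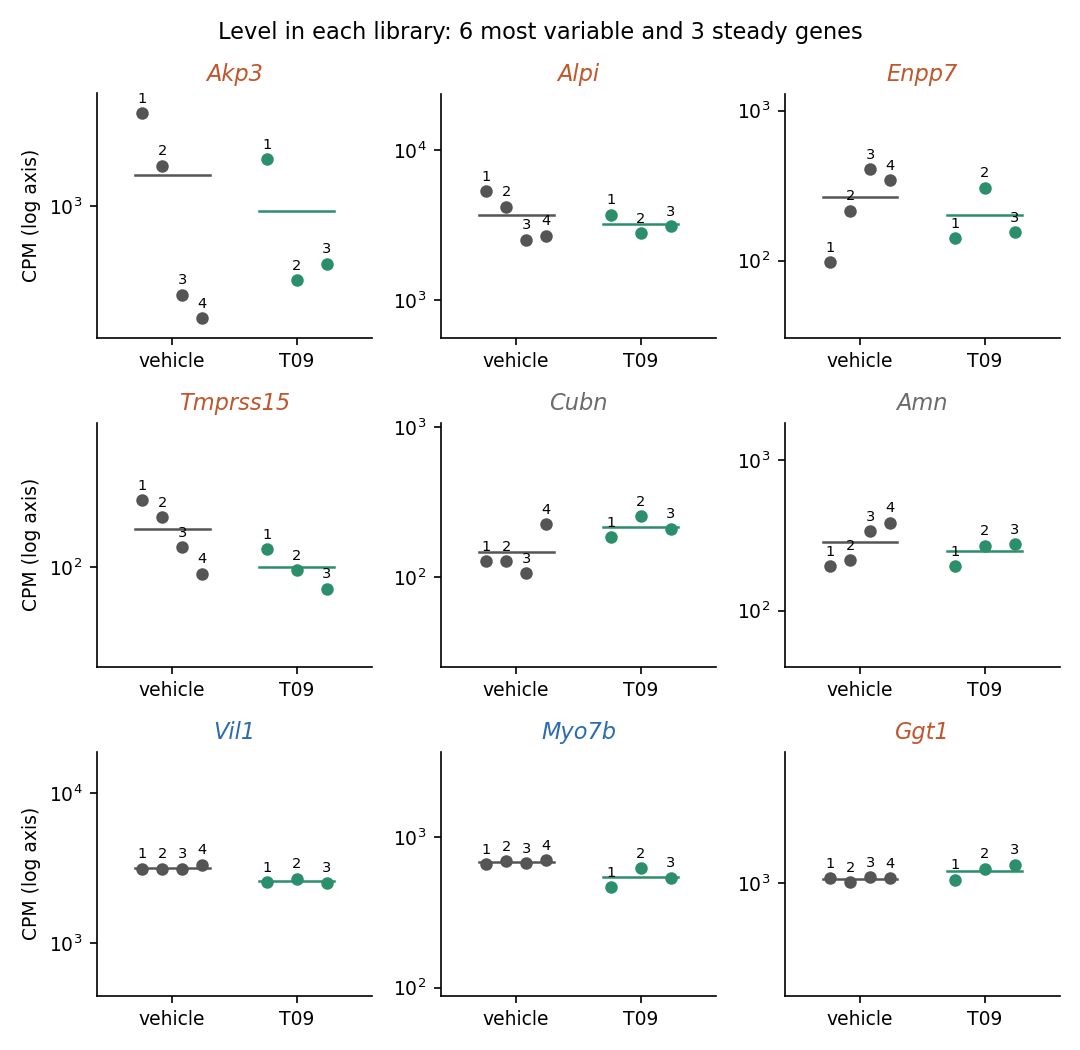
CPM in each library (y axis, log scale, every panel spanning the same fold range) for vehicle (4 points) and T09 (3 points), in the 6 genes with the largest and the 3 with the smallest variation between vehicle mice. Akp3 spans 23.1-fold between vehicle mice, while Vil1 and Myo7b form tight vehicle groups with the T09 points below.

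The cubam subunits lay on opposite sides of 0, and neither passed the test. Cubn, cubilin, the part that binds intrinsic factor with vitamin B12, measured 128, 128, 106 and 225 CPM in vehicle and 185, 256 and 211 CPM in T09. Vehicle 4 alone among the vehicle libraries lay inside the T09 range, and the log2 fold change was 0.56 (SE 0.24, adjusted p = 0.255 by edgeR). Without vehicle 4 it was 0.84 with an edgeR adjusted p of 0.0238, against 0.733% of genes called higher in that fit. Amn, amnionless, which carries cubilin to the surface, measured 198, 217, 339.5 and 385 CPM in vehicle and 197, 270.4 and 277 CPM in T09, an overlap (log2 fold change -0.20, SE 0.24). Adipocyte genes were also highest in vehicle 4, and their part in the Cubn value was not tested.

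All 12 structural genes were below 0, with a median log2 fold change of -0.21, and 5 showed no overlap between the groups, against 9.69% of all genes with T09 lower and 8.27% of those at 50 CPM or more. Ezr, ezrin, which links actin to the membrane, measured 1482, 1716, 1821 and 1788 CPM in vehicle and 1215, 1387 and 1181 CPM in T09. All T09 libraries were lower, and the log2 fold change was -0.43 (SE 0.12, adjusted p = 0.0734 by edgeR). Vil1, villin, an actin bundler that defines the brush border, measured 3143, 3150.1, 3136 and 3351 CPM in vehicle and 2556, 2697 and 2539 CPM in T09. The 2 groups were tight and well apart, with a log2 fold change of -0.30 (SE 0.09, adjusted p = 0.129 by edgeR). DESeq2 gave adjusted p of 0.00431 for Ezr and 0.00514 for Vil1.

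The other 4 actin core genes overlapped between the groups. Espn, espin, a second actin bundler, was 278 to 381 CPM in vehicle and 238 to 282 CPM in T09 (log2 fold change -0.31, SE 0.13, adjusted p = 0.246 by edgeR), with T09 2 just above the lowest vehicle library. Myo1a, the motor that tethers the bundle to the membrane, measured 1333, 1692 and 1915 CPM in T09, around vehicle values of 1675 to 1958 CPM. Pls1, the bundler fimbrin of the intestine, and Eps8, a protein of the microvillus tip, had log2 fold changes of -0.17 (SE 0.12) and -0.09 (SE 0.13).

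The intermicrovillar adhesion complex, whose protocadherins join the tips of neighbouring microvilli, showed no overlap for 3 of its 4 genes, against the same shares of 9.69% and 8.27%. Cdhr2, a protocadherin, measured 2365, 2134, 1822 and 2111 CPM in vehicle and 1675, 1653 and 1595 CPM in T09 (log2 fold change -0.36, SE 0.11, adjusted p = 0.125 by edgeR). Its partner Cdhr5 measured 1688, 1573, 1630.1 and 1848 CPM in vehicle and 1414, 1424 and 1428 CPM in T09 (log2 fold change -0.24, SE 0.10, adjusted p = 0.239 by edgeR). Myo7b, the motor of the complex, measured 664, 692, 673 and 705 CPM in vehicle and 467, 621 and 537 CPM in T09 (log2 fold change -0.34, SE 0.11, adjusted p = 0.156 by edgeR). In all 3 genes each T09 library was below each vehicle library, and DESeq2 called Cdhr2 and Myo7b lower, with adjusted p of 0.0177 and 0.0485, but not Cdhr5. Ush1c, harmonin, the scaffold of the complex, overlapped at 342 to 403 CPM in vehicle and 302 to 356 CPM in T09.

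The PDZ scaffolds that hold transporters at the apical membrane were near 0, with the log2 fold change of Slc9a3r1 (NHERF1) at -0.11 (SE 0.12) and Pdzk1 at -0.06 (SE 0.11). Pdzk1 overlaps Gpr89 on the opposite strand, whose counts came to 31.2% of those of Pdzk1, and the strand setting of the counting was not given in the sources used here, so reads from the 2 genes may not be separated. For Vil1, Treh and Ezr the overlapping genes Usp37, Phldb1 and Sytl3 had counts of 2.85%, 2.05% and 0.803% of the member.

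The hydrolases and the structural genes had nearly equal median log2 fold changes, -0.22 and -0.21. The hydrolases were the more scattered class, both in log2 fold change and between vehicle mice. These scatters are not separate observations, since the same 4 vehicle libraries enter every fold change. The SD of the log2 fold change over genes was 0.31 for the 19 hydrolases and 0.12 for the 12 structural genes. Across the 4 vehicle libraries the coefficient of variation (CV, the SD as a percentage of the mean) had a median of 14.2% for hydrolases, with a range of 3.61% to 116%, and of 8.13% for structural genes, with a range of 2.65% to 14.3%. The median over all genes at 50 CPM or more was 10.1%. A CV above 15% was seen in 9 of 19 hydrolases, 0 of 12 structural genes and 842 of the 3543 genes. The largest were Akp3 at 116%, Enpp7 at 51.9%, Tmprss15 at 46.4%, Cubn at 36.3%, Alpi at 35.9% and Amn at 32.1%. The smallest were Myo7b at 2.65%, Vil1 at 3.26% and Ggt1 at 3.61%. These are descriptions of 4 mice, which all genes of a class share, and the difference between the classes was not tested.

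**Figure D3:**
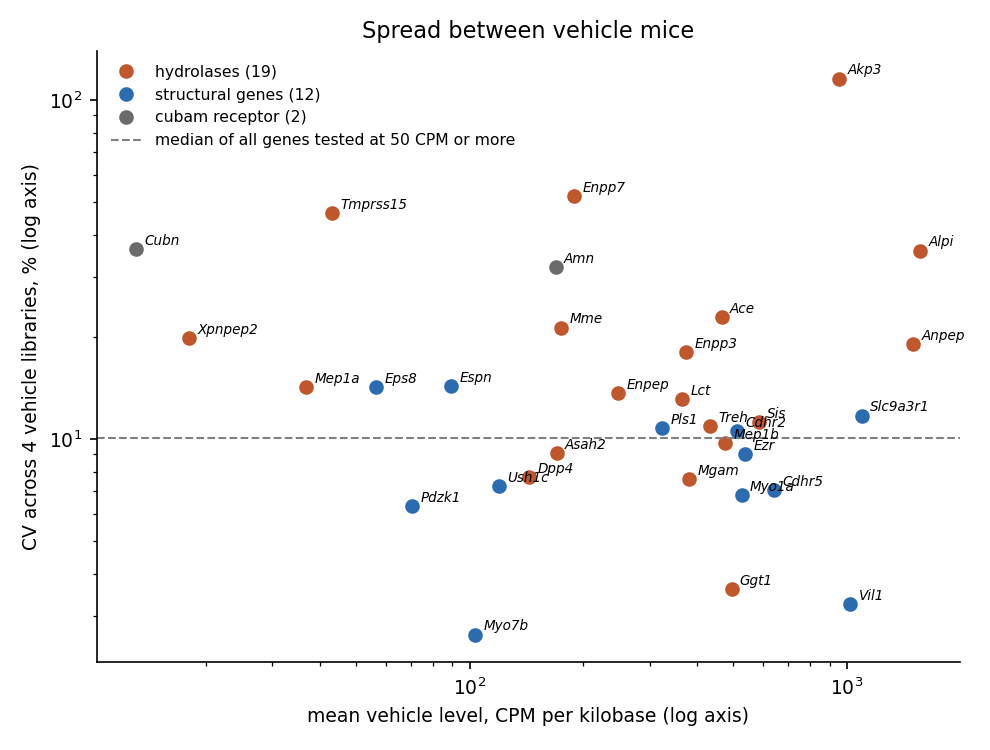
CV across the 4 vehicle libraries (y axis, %, log scale) against the mean vehicle level in CPM per kilobase (x axis, log scale), 1 point for each of the 33 genes. Akp3 lies highest at 116%, and all 12 structural genes lie below 15%.

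By abundance per length the enzymes and the structural genes were mixed. Per kilobase of listed gene length in vehicle, Alpi came first at 1567 ± 563 CPM (SD, n = 4), then Anpep at 1497 ± 285, Slc9a3r1 at 1095 ± 128, Vil1 at 1023 ± 33.3 and Akp3 at 955 ± 1104. Alpi and Anpep differed by less than either SD, Slc9a3r1 and Vil1 by less than the SD of Slc9a3r1, and Akp3 could not be placed among them. Cubn was last at 13.0 ± 4.74 CPM per kilobase, below Xpnpep2 at 18.0 ± 3.58 and Mep1a at 36.9 ± 5.24. The order depends on the measure used. In vehicle 1 the deposited FPKM exceeded the value from counts and listed length for many genes, reaching 3.87 times that value for Dpp4. The length behind the FPKM values was not examined. By mean vehicle FPKM, Anpep and Vil1 were ahead of Alpi.

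Summed over its genes, the structural class was lower in T09 without overlap and the hydrolase class was not. Structural genes made up 1.54%, 1.54%, 1.55% and 1.62% of the scaled library in vehicle and 1.246%, 1.37% and 1.33% in T09. Hydrolases made up 3.32%, 3.23%, 2.55% and 2.97% in vehicle and 2.63%, 2.76% and 2.79% in T09. The structural sums separated cleanly, while vehicle 3 had the lowest hydrolase sum of all 7 libraries. The ratio of the hydrolase to the structural sum was 2.16, 2.10, 1.65 and 1.83 in vehicle and 2.11, 2.02 and 2.10 in T09. Without Akp3 and Alpi it was 1.55, 1.71, 1.47 and 1.66 in vehicle and 1.65, 1.79 and 1.83 in T09, and the groups overlapped either way.

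**Figure D4:**
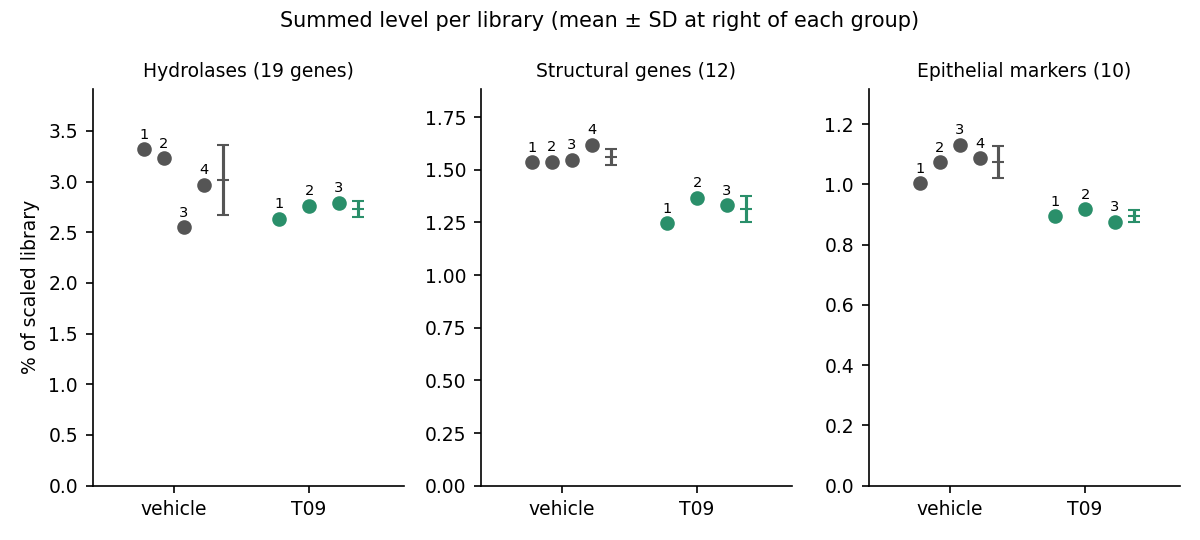
Summed level as a percentage of the scaled library (y axis) in each library, with the group mean and SD, for vehicle (n = 4) and T09 (n = 3). Structural genes and epithelial markers are lower in each T09 library than in any vehicle library, and the hydrolase sums overlap.

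Set against the epithelial markers, the separation of the structural genes was no longer seen. The ratio of the structural sum to the summed epithelial markers was 1.53, 1.43, 1.37 and 1.49 in vehicle and 1.39, 1.49 and 1.52 in T09, an overlap. When the libraries were scaled to the 10 epithelial markers in place of all genes, the median log2 fold change of the 33 genes was -0.01, with 19 below 0 and 14 above, and edgeR called 0. The structural genes then divided evenly, 6 below 0 and 6 above, and the hydrolases were 13 below and 6 above with a median of -0.02. This scaling moves the median of all genes by 0.20 on the log2 scale, to 0.22. It also changes the overall picture from 614 called genes, 33.4% of them higher, to 1274 called, 71.6% higher. By summed level the structural genes were thus lower in T09 relative to all measured RNA of the tissue, although edgeR called 0 of the 12. Relative to the epithelial markers the structural genes divided around 0. The scaling rests on the 10 markers having the same level per enterocyte in both groups, which was not tested.

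**Figure D5:**
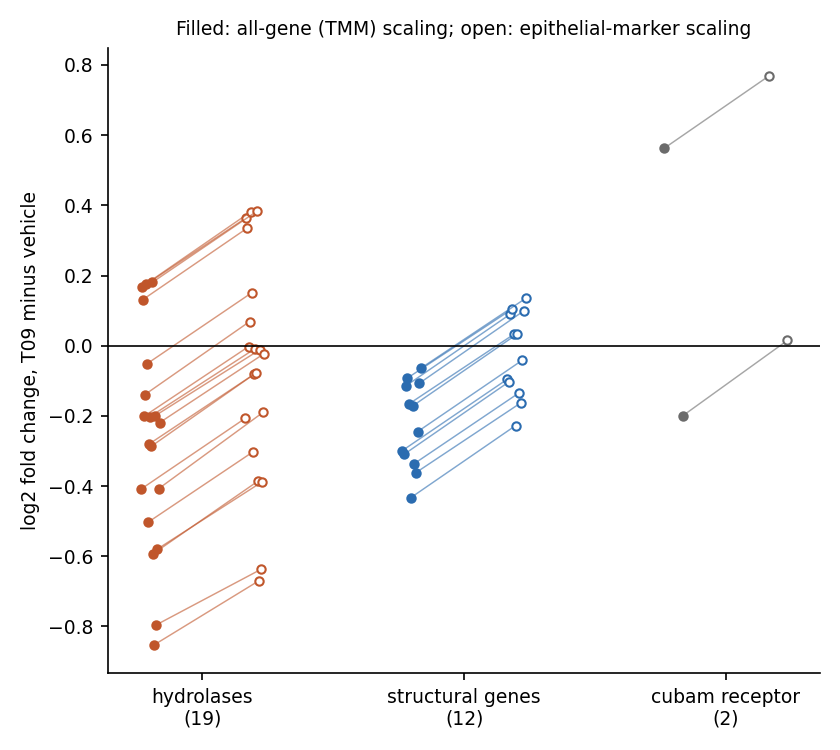
Log2 fold change of T09 over vehicle (y axis) for each gene by class, with filled points for scaling on all genes and open points for scaling on the 10 epithelial markers. The median of the 12 structural genes moves from -0.21 to near 0, and the hydrolases keep their wider scatter.

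Related gene lists that exclude the 33 genes were examined next. Of 25 other genes of microvillus structure and assembly, 2 were called lower by edgeR, against 2.87% of all genes, and 0 higher, with a median log2 fold change of -0.01. Stk10, a kinase that phosphorylates ezrin and its relatives, measured 89.6, 123, 122 and 110.5 CPM in vehicle and 70.2, 64.8 and 56.8 CPM in T09 (log2 fold change -0.80, SE 0.13, adjusted p = 0.0107 by edgeR). Myo1e, a class I myosin, measured 121, 111, 106 and 103 CPM in vehicle and 86.0, 78.6 and 63.9 CPM in T09 (log2 fold change -0.53, SE 0.12, adjusted p = 0.0364 by edgeR). Neither gene overlapped between groups. Both are expressed in other cell types too. Without T09 3 neither was called, with an adjusted p of 0.0544 by edgeR for Stk10. Leaving out any other library kept the call of Stk10 (adjusted p of 0.0102 to 0.0459 by edgeR). For Myo1e the call was kept without T09 1 (0.0242) and lost without each of the others (0.0662 to 0.115).

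Of 8 other luminal surface hydrolases, 5 were tested and edgeR called 0, with 2 at an unadjusted p under 0.05, against 17.9% of all genes. DESeq2 and limma-voom each called 1 of the 5. Nt5e, which makes adenosine from AMP, measured 85.1, 58.9, 71.8 and 64.5 CPM in vehicle and 41.4, 14.5 and 8.11 CPM in T09, with no overlap (log2 fold change -1.71, SE 0.45, adjusted p = 0.0697 by edgeR). The 6 villus tip genes were all below 0 with a median of -0.69. They include Nt5e, and also Klf4, which is among the transcription factors below, so these lists are not separate. EdgeR called 0 of the 6, with 4 at an unadjusted p under 0.05, against 17.9% of all genes. DESeq2 and limma-voom each called 1 of the 6. Ada, adenosine deaminase, was among them, at 3746, 2903, 3739 and 2435 CPM in vehicle and 2121, 1262 and 547 CPM in T09, also without overlap (log2 fold change -1.29, SE 0.38, adjusted p = 0.103 by edgeR).

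Of 17 transcription factors of the enterocyte, edgeR called 0, with 3 at an unadjusted p under 0.05, near the share of 17.9% of all genes. The median log2 fold change was -0.08, and the smallest adjusted p by edgeR was 0.158. Maf, a leucine zipper factor, measured 469, 364, 443 and 394 CPM in vehicle and 259, 382 and 267 CPM in T09, where T09 2 overlapped vehicle (log2 fold change -0.46, SE 0.16). Gata6, a zinc finger factor of the gut epithelium, measured 196, 189, 233 and 234 CPM in vehicle and 180.4, 181 and 165 CPM in T09. Its groups did not overlap, by a margin of 189 against 181 CPM (log2 fold change -0.28, SE 0.11, adjusted p = 0.219 by edgeR).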

How the data were processed

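RNA-seq of duodenum from 7 mice was used as deposited, in a table of whole-number read counts and FPKM for each gene and library made by the authors. Per the submitters' processing notes, the tools named were DESeq 1.18.0, HTSeq 0.6.1, Bowtie2 2.2.3 and TopHat2 2.0.12. No label or file header names the build, the annotation release or the strand setting. Gene coordinates in the table were the same as in GENCODE M21 (GRCm38) for 26 of the 33 genes and overlapped it for all 33. The deposited FPKM values were used only to rank levels.

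Counts were tested with edgeR 4.0.16 (filterByExpr, TMM, glmQLFit and glmQLFTest, vehicle and T09 as the groups) in R 4.3.3 over 14250 genes, with Benjamini-Hochberg adjustment over all of them. The script was tested on simulated data. Alternatives were DESeq2 1.42.0, limma 3.58.1 (voom), other scalings, other filters, a replicate block and leaving out each library. Total counts ranged from 15395535 to 20494485. Each library is 1 mouse, so the p-values set the group difference against the spread between mice. Spread is given as SD.

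The members and all lists were chosen with earlier results of these data known. Every one of the 33 genes is accounted for. From each related list, the genes called were named, or, where none was, the 2 with the smallest p. For the luminal surface hydrolases, 1 of these is not reported here. Promoters came from RefSeq on GRCm38.p6.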

Additional observations from a re-analysis of the deposited data

Results flagged for a closer look

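Dixon's test was applied to the 4 vehicle libraries in 45 sets of values, the brush border genes and their sums among them, and 2 exceeded its critical value for 4 values. Chance alone would pick out about 1 in 20, or 2.25 of 45. Vil1 was highest in vehicle 4, at 3350.9 CPM, against 3136 to 3150.1 CPM in the other vehicle libraries. The summed level of the structural genes was also highest in vehicle 4, at 16193 CPM, against 15360.5 to 15489 CPM in the other vehicle libraries. Vil1 is part of that sum, so the 2 results are not separate. In both, vehicle 4 lay farther from the T09 libraries than the other vehicle libraries did.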

How the results depend on the processing

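Of the 33 genes, 22 kept their sign under all 15 alternatives, 17 of them below 0. The number of genes called among all tested was 614, and it was 1274 with epithelial-marker scaling, 1091 with DESeq2 and 251 (without T09 3) to 819 (without T09 1) on leaving out each library. Brush border genes called went from 0 to 7 with DESeq2 (3 hydrolases and 4 structural), to 2 without a filter (2 hydrolases), and to 0 to 1 on leaving out a library. The median of the structural genes was -0.26 with library size alone and -0.0042 with epithelial scaling, and that of the hydrolases was -0.022 with epithelial scaling. Called genes among the other microvillus genes went from 2 to 1 with epithelial scaling, 4 with DESeq2 and 0 to 3 on leaving out a library. For luminal hydrolases they went from 0 to 1 with DESeq2, voom or no filter, and to 0 to 1 on leaving out a library. For transcription factors they went to 1 with epithelial scaling and 0 to 1 on leaving out a library. For villus tip genes they went to 1 with DESeq2 or voom, 2 with no filter and 0 to 3 on leaving out a library. The cause of these shifts was not tested.

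Epithelial scaling turned the sign of Anpep (0.069), Dpp4 (0.15), Amn (0.015), Myo1a (0.090), Eps8 (0.10), Pls1 (0.033), Ush1c (0.034), Slc9a3r1 (0.10) and Pdzk1 (0.14). On leaving out each library, the sign turned for Dpp4 (-0.10 to 0.021), Myo1a (-0.23 to 0.020), Pdzk1 (-0.13 to 0.038), Alpi (-0.35 to 0.033) and Akp3 (-2.13 to 0.29).

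The deviations of same-numbered vehicle and T09 libraries correlated across genes at 0.27 for number 1, 0.05 for number 2 and -0.04 for number 3. Since not every pair exceeded 0.1, the numbers were not taken to pair the mice. With the replicate number as a block, 290 genes were called, 2 of them brush border genes (1 of them a hydrolase), with 1 luminal hydrolase and 1 villus tip gene. The brush border genes were Tmprss15 (log2 fold change -1.06, edgeR adjusted p = 0.00878) and Cubn (0.84, edgeR adjusted p = 0.0268), and Amn turned to 0.0049.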
